A study of Mus musculus with 10 samples.

Results

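The 9 genes Tpm1, Tpm2, Tpm3, Tpm4, Cald1, Lmod1, Smtn, Des and Vim encode the 4 tropomyosins, caldesmon, leiomodin, smoothelin, desmin and vimentin. They were taken as the rows of the deposited gene table whose Ensembl ID, without its version, carries 1 of these symbols in the GENCODE M21 annotation of GRCm38. All 9 were found among the 54446 genes of the table, and all 9 were among the 15181 genes tested. They were measured by mRNA sequencing in primary smooth muscle cells from the aorta of KitW/WV mice (WWv), which combine the W and the Wv allele of Kit, and of wild type mice (WT), with 5 libraries of each. The product of Kit is the receptor for stem cell factor, and the series asked which transcripts differ in vascular smooth muscle without its signalling. Both groups were freed from the aorta with collagenase and grown to passage 2, so every value describes cultured cells rather than the vessel wall. The protocols name 5 mice of each genotype, which matches the number of libraries. That each library came from a separate mouse is not stated, so the p-values measure the spread between these libraries. The sources used here give no sex, age or genetic background.

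Tropomyosins are coiled-coil proteins that lie end to end along the actin filament and set how myosin and other proteins reach it. Smooth muscle lacks the troponin switch of striated muscle, and caldesmon binds both actin and tropomyosin there and restrains the myosin ATPase. Leiomodin starts new actin filaments, smoothelin binds actin in contractile smooth muscle, and desmin and vimentin form the intermediate filaments that tie the contractile units to the rest of the cell. Tpm1, Tpm2, Tpm3 and Cald1 give muscle and non-muscle isoforms through other promoters and exons, and the gene-level values here do not separate them. Cultured smooth muscle cells are known to lose contractile proteins as they proliferate.

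Totals ran from 43455518 to 53863661 counts per library in WWv and from 42040255 to 51309067 in WT. Kit, the gene that carries the alleles, averaged 2.00 ± 0.764 CPM (counts scaled to library size) in WWv and 4.12 ± 0.629 CPM in WT (SD, n = 5 each, log2 fold change −1.04 ± 0.25 SE, edgeR adjusted p = 0.0122). With the level of the cell cycle genes as a covariate, a fit described below, Kit did not pass (−1.18, adjusted p = 0.0654). The smooth muscle markers Myh11, Acta2, Cnn1, Tagln, Myocd, Mylk, Actg2 and Myl9 were all detected. They summed to between 17864 and 21715 CPM in WWv and between 10560.2 and 14202 CPM in WT. Of the 8, 7 were called higher, against 12.8% of all tested genes. Mylk was not (164 CPM in WWv and 158 CPM in WT, log2 fold change 0.052, edgeR adjusted p = 0.901). WT replicate 2 (WT 2) stood apart from the other WT libraries. Its score on principal component 1, which held 52.5% of the variance, was 20.2, within the WWv range of 11.5 to 33.4 and away from the other 4 WT libraries at −51.1 to −29.1. The mean level of 16 cell cycle genes was 5.60 to 5.80 log2 CPM in WWv, 5.77 in WT 2 and 5.01 to 5.18 in the other 4 WT libraries. Calls of the 9 genes and counts of the gene lists that differ without WT 2 are therefore given both ways.

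Tpm1, Tpm2, Lmod1, Cald1 and Vim were higher in WWv cells, and none of the 9 genes was lower. Among these 5 the largest changes were those of Lmod1 (1.48-fold), Tpm2 (1.45-fold) and Tpm1 (1.38-fold), followed by Vim (1.29-fold) and Cald1 (1.24-fold). Tpm3, Tpm4, Smtn and Des did not pass the test. Thus 5 of 9 genes were called higher and 0 lower at an edgeR adjusted p under 0.05, where 28.2% of all tested genes were called, 12.8% higher and 15.4% lower. The median log2 fold change of the 9 genes was 0.33, against −0.0082 over all tested genes. With library size alone in place of TMM scaling, 21.5% rather than 45.4% of all calls were higher, and 4 of the 9 genes were called higher.

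**Figure D1:**
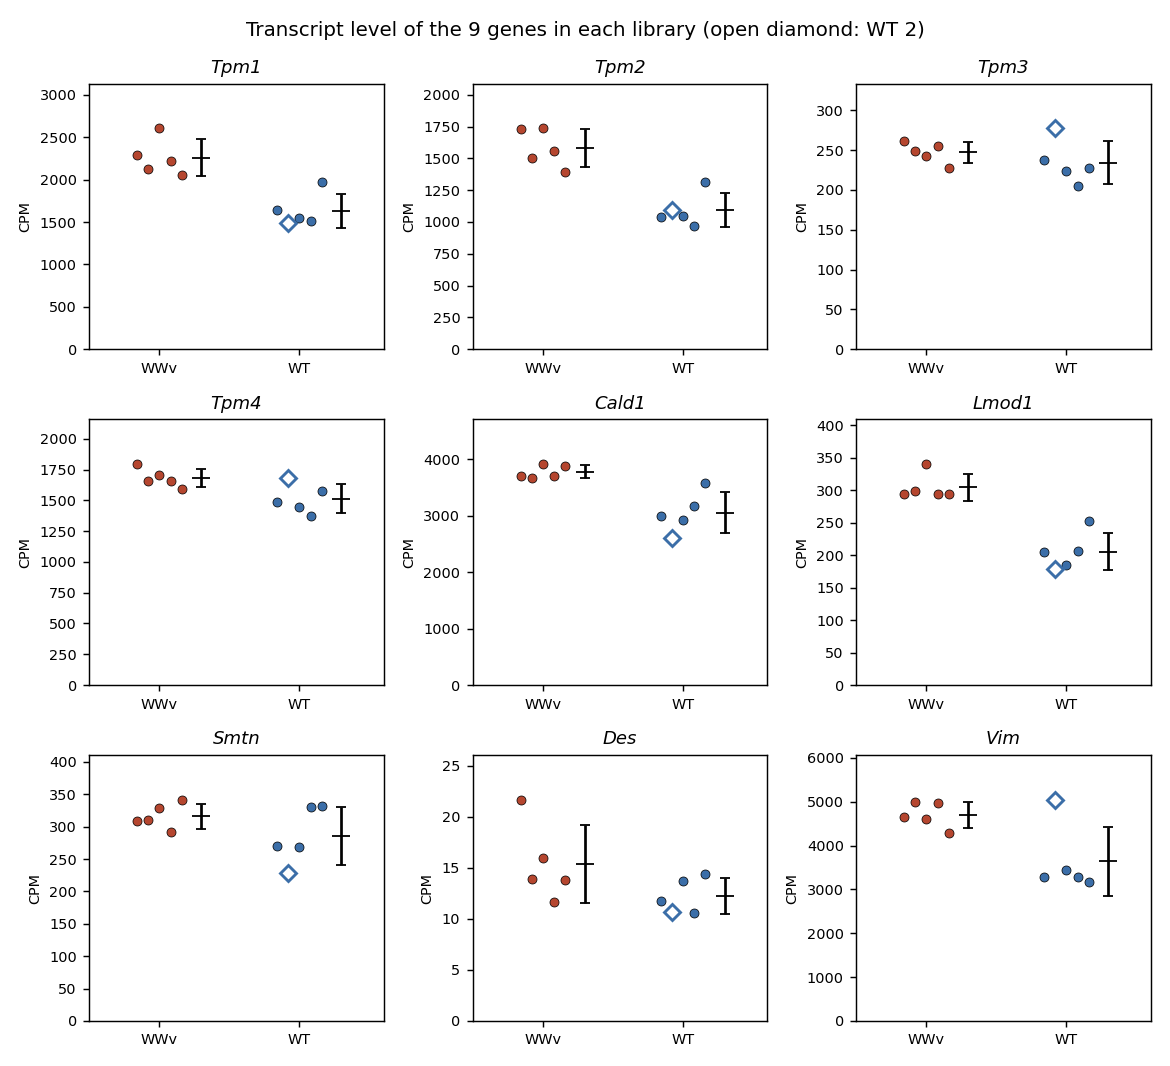
Each panel plots the level of a gene in CPM in the 5 WWv and the 5 WT libraries, with points for libraries, an open diamond for WT 2 and bars for mean ± SD. The WWv and WT points are separate for Tpm1, Tpm2, Cald1 and Lmod1, and WT 2, at 5049 CPM, lies above all WWv points for Vim.

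Lmod1, the leiomodin of smooth muscle (ENSMUSG00000048096, chromosome 1, 135324807 to 135368065, plus strand, mm10), had the smallest p of the 9 genes. It stood at 294, 298, 341, 295 and 294 CPM in WWv replicates 1 to 5, against 205, 179, 185, 207 and 252 CPM in WT replicates 1 to 5. Every WWv library lay above every WT library, WWv 3 was the highest of all, and WT 5 came closest to the WWv values. The group means were 304 ± 20.4 CPM in WWv and 205 ± 28.8 CPM in WT (SD, n = 5 each), a log2 fold change of 0.57 ± 0.090 SE (edgeR adjusted p = 0.00178). Of the 9 genes only Lmod1 has a single annotated transcript, so its value is not a sum over isoforms of the annotation.

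Tpm2, the gene of beta-tropomyosin (ENSMUSG00000028464, chromosome 4, 43514711 to 43523765, minus strand), stood at 1731, 1502, 1739, 1557 and 1391 CPM in WWv replicates 1 to 5. The WT replicates 1 to 5 held 1038, 1097, 1047, 968 and 1316 CPM. The groups did not overlap, and WT 5 was again the highest of WT and WWv 5 the lowest of WWv. The means were 1584 ± 150.0 CPM in WWv and 1093 ± 133 CPM in WT, a log2 fold change of 0.54 ± 0.093 (adjusted p = 0.00275). Tpm1, the gene of alpha-tropomyosin (ENSMUSG00000032366, chromosome 9, 67022590 to 67049406, minus strand), stood at 2296, 2129, 2612, 2215 and 2054 CPM in WWv replicates 1 to 5, against 1644, 1485, 1553, 1519 and 1976 CPM in WT replicates 1 to 5. It too showed no overlap in CPM, and the gap between its lowest WWv and its highest WT library was narrow. With library totals alone in place of TMM scaling, Tpm1 loses this gap. Its log2 fold change was 0.47 ± 0.094 (adjusted p = 0.00532), with means of 2261 ± 216 CPM in WWv and 1635 ± 199.6 CPM in WT.

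Tpm4, mainly a non-muscle tropomyosin gene (ENSMUSG00000031799, chromosome 8, 72134975 to 72153142, plus strand), stood at 1797, 1658, 1702, 1659 and 1593 CPM in WWv replicates 1 to 5. The WT values were 1485, 1685, 1449, 1374 and 1577 CPM for replicates 1 to 5. WT 2 lay inside the WWv range, and the log2 fold change of 0.15 ± 0.066 did not pass (adjusted p = 0.107). Without WT 2 it passed at 0.20 (adjusted p = 0.0169). An antisense gene, Gm26586, shares 134 exon bases with Tpm4, and it averaged 5.39 CPM in WWv and 5.20 CPM in WT, far below Tpm4.

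Tpm3 (ENSMUSG00000027940, chromosome 3, 90072649 to 90100902, plus strand), whose products serve slow skeletal muscle and non-muscle cells, was the least abundant tropomyosin gene and gave 262, 249, 243, 255 and 228 CPM in WWv replicates 1 to 5. In WT replicates 1 to 5 it gave 238, 278, 223, 205 and 228 CPM, so that WT 2 was the highest of all 10 libraries. The log2 fold change of 0.077 ± 0.076 did not pass (adjusted p = 0.471) and stood at −0.0089 with library size only. Without WT 2 it was 0.15 (adjusted p = 0.0477). These reads are uncertain because Tpm3-rs7 on chromosome 14 (113314608 to 113316754) matches the longest Tpm3 transcript, the only one searched, at 99.4% over 522 bases. It held 26.8% as many counts as Tpm3 over all libraries. Tpm3-rs7 itself averaged 69.0 ± 2.87 CPM in WWv and 60.3 ± 8.03 CPM in WT (log2 fold change 0.19, adjusted p = 0.094). Added together, both loci averaged 316 ± 15.6 CPM in WWv and 295 ± 34.5 CPM in WT.

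The 4 tropomyosin genes resemble each other, and the length of sequence they share sets how far short reads can tell them apart. In the GENCODE M21 transcripts the longest identical run between Tpm3 and Tpm4 was 32 bases, and between Tpm1 and either of them 23 bases, all within coding sequence. The runs are printed because a read that reaches past them meets a difference. The read length is not given in the sources used here.
Tpm3 and Tpm4: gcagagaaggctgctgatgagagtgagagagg
Tpm1 and Tpm3: cagaaactgaagtacaaggccat
Tpm1 and Tpm4: gatgagagtgagagaggcatgaa
Tpm2 shared runs of 17 bases with Tpm3 and 18 bases with Tpm4. Its longest run with Tpm1 was 37 bases and did not lie wholly within the annotated coding part of either gene. No pair that joined a tropomyosin with another of the 9 genes shared more than 19 bases. Near-identical copies were sought with the longest transcript of each gene, so exons outside that transcript were not searched. Matches of at least 95% identity over at least 200 bases were kept. Other than Tpm3-rs7, they were a Tpm4 pseudogene, Gm7809, with 0.112% as many counts as Tpm4, and the antisense genes that overlap Smtn and Des.

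Levels of different genes can be compared only per length, and CPM was divided by the bases covered by any exon of the gene, in kilobases (kb). On this scale Tpm4 was the most abundant tropomyosin gene, at 763 ± 34.2 CPM per kb in WWv and 687 ± 54.6 CPM per kb in WT. Tpm2 followed at 545 ± 51.6 in WWv and 376 ± 45.6 in WT, then Tpm1 at 349 ± 33.3 in WWv and 252 ± 30.8 in WT, and Tpm3 at 40.6 ± 2.13 in WWv and 38.5 ± 4.44 in WT. The order Tpm4, Tpm2, Tpm1, Tpm3 held in each of the 10 libraries, beyond the spread within a group. It depends on the length used, since Tpm1 has 21 annotated transcripts and 6485 exon bases. With the longest transcript as the length, the order of these 2 turned, as Tpm1 took 32.5% and Tpm2 30.2% of the tropomyosin sum in WWv, and Tpm1 took 30.1% and Tpm2 26.7% in WT. Tpm4 then took 32.9% in WWv and 37.9% in WT, so its share was still the lower one in WWv.

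Among the tropomyosins the balance between the genes differed between the groups. Tpm4 made up 45.1, 45.9, 42.6, 45.0 and 46.5% of the tropomyosin CPM per kb in WWv replicates 1 to 5, against 50.9, 54.0, 50.8, 50.9 and 47.4% in WT replicates 1 to 5. Every WWv library had a lower share of Tpm4 than every WT library. Tpm2 took 30.8 to 33.0% in WWv and 26.6 to 30.0% in WT, again with no overlap, and Tpm1 took 19.6 to 22.2% in WWv and 16.2 to 20.2% in WT, with overlap. The ratio of Tpm2 to Tpm4 in CPM per kb was 0.712 ± 0.043 in WWv and 0.547 ± 0.052 in WT (SD, n = 5 each). These shares come from values already tested gene by gene, and they are given as a description with no test of their own. In sum the 4 genes held 5774 ± 416 CPM in WWv and 4477 ± 389 CPM in WT.

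**Figure D2:**
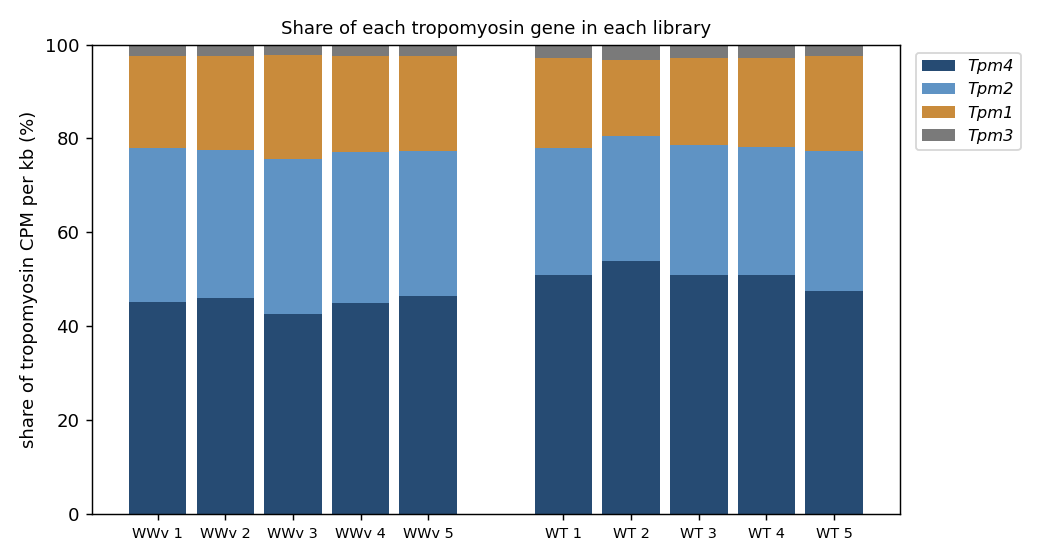
Stacked bars show the share of each tropomyosin gene, in percent of their summed CPM per kb of exon, in each library, with the WWv libraries on the left and the WT libraries on the right. Tpm4 takes 42.6 to 46.5% in WWv and 47.4 to 54.0% in WT, and Tpm2 takes the larger part of the difference.

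Cald1, the gene of caldesmon (ENSMUSG00000029761, chromosome 6, 34598500 to 34775473, plus strand), stood at 3700.4, 3668, 3921, 3706 and 3886 CPM in WWv replicates 1 to 5. In WT replicates 1 to 5 it stood at 2991, 2609.6, 2919, 3176 and 3582 CPM. The 5 WWv libraries lay close together, with a coefficient of variation of 3.11% against 11.7% in WT, and all were above WT 5. With library totals alone in place of TMM scaling, WT 5 lies above WWv 2. The means were 3776 ± 117 CPM in WWv and 3056 ± 358 CPM in WT, a log2 fold change of 0.31 ± 0.082 (edgeR adjusted p = 0.0191). Leaving out WT 3 ended the call at 0.29 (adjusted p = 0.0513), and the call held in each of the other 9 fits that left out a library.

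Smtn, the gene of smoothelin (ENSMUSG00000020439, chromosome 11, 3517523 to 3540612, minus strand), gave 309, 309.6, 329, 292 and 342 CPM in WWv replicates 1 to 5. The WT libraries gave 269, 228, 269, 330.4 and 332 CPM for replicates 1 to 5. WT 4 and WT 5 lay within the WWv range, and WWv 5 alone exceeded all WT libraries. The log2 fold change of 0.15 ± 0.0998 did not pass (adjusted p = 0.289), nor did it without WT 2, at 0.078 (adjusted p = 0.441). Per kb Smtn and Lmod1 stood at similar levels in WWv (72.2 ± 4.48 and 77.1 ± 5.17 CPM per kb), whereas in WT Smtn was at 65.2 ± 10.2 and Lmod1 at 52.0 ± 7.30. Cald1 was near Tpm1 in WT (254 ± 29.8 against 252 ± 30.8 CPM per kb), and Des was lowest at 4.10 ± 1.02 in WWv and 3.26 ± 0.466 in WT. These levels per kb depend on the length used and were not repeated with the longest transcript. Cald1 has 18 annotated transcripts and 12041 exon bases, and Smtn has 10 transcripts. The ratio of Lmod1 to Smtn ran from 0.953 to 1.15 in WWv and from 0.694 to 0.871 in WT, with no overlap. The antisense gene Gm11946, which shares 714 exon bases with Smtn, averaged 1.11 CPM in each group.

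Des, the gene of desmin, the intermediate filament of muscle (ENSMUSG00000026208, chromosome 1, 75360329 to 75368579, plus strand), was by far the least abundant of the 9 genes, with 497 to 965 counts per library. It stood at 21.7, 13.9, 15.9, 11.7 and 13.8 CPM in WWv replicates 1 to 5, against 11.8, 10.7, 13.7, 10.6 and 14.4 CPM in WT replicates 1 to 5. The groups overlapped, and WWv 1 lay above the rest. The log2 fold change was 0.33 ± 0.16 (adjusted p = 0.137), and it was 0.18 without WWv 1 (adjusted p = 0.288). Desmin is also a gene of striated muscle, and of 12 striated muscle markers 10 stayed under 1 CPM in every library, with Myf5 at 0 counts. Their summed level was 1.54 to 2.32 CPM in WWv and 0.776 to 1.57 CPM in WT, of which Myh2 gave the most and was called higher (1.23 CPM in WWv and 0.637 CPM in WT, adjusted p = 0.0108). Its part in the result was not tested.

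Vim, the gene of vimentin, the intermediate filament of mesenchymal cells (ENSMUSG00000026728, chromosome 2, 13573927 to 13582826, plus strand), had the highest mean of the 9 genes in CPM per kb, 992 ± 62.7 in WWv and 768 ± 167 in WT. In WT this did not stand clear of Tpm4, and the rank depends on the length used. It stood at 4647, 5004, 4606, 4978 and 4284 CPM in WWv replicates 1 to 5, against 3288, 5049, 3435, 3271 and 3160.3 CPM in WT replicates 1 to 5. WT 2 was above every WWv library, while the other 4 WT libraries were below all of them. The means were 4704 ± 298 CPM in WWv and 3641 ± 793 CPM in WT, a log2 fold change of 0.37 ± 0.13 that lay at the threshold (edgeR adjusted p = 0.0499). Without WT 2 it was 0.52 (adjusted p = 0.000136), whereas leaving out any other library ended the call (0.32 to 0.39, adjusted p = 0.071 to 0.125). With RLE, upper quartile or library size scaling it did not pass either (adjusted p = 0.0545, 0.0635 and 0.144).

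WT 2, the highest library for Vim, was also the highest WT library for the cell cycle genes. Of the 16 cell cycle genes 9 were called higher in WWv and 0 lower, against 12.8% and 15.4% of all tested genes. Their summed level was 939.7 to 1089 CPM in WWv and 645 to 1103 CPM in WT. With their mean level as a covariate, a fit chosen after seeing the data, Vim stood at −0.028 (adjusted p = 0.884) and Tpm3 at −0.12 (adjusted p = 0.433). In the same fit Lmod1 (0.78, adjusted p = 0.0063), Tpm1 (0.64, adjusted p = 0.0202), Tpm2 (0.60, adjusted p = 0.0321) and Cald1 (0.53, adjusted p = 0.0123) were higher. Smtn passed there at 0.46 (adjusted p = 0.0263), and 5 of 9 genes were called higher, against 4.7% of all tested genes (7.94% in either direction). WT 2 is the only library through which the cell cycle level overlaps between the groups. Vimentin is also abundant in fibroblasts and endothelial cells. Of 9 fibroblast markers 5 were called lower and 0 higher, where 15.4% of all tested genes were called lower. The 5 were Pdgfra, Dcn, Lum, Dpt and Dpep1, with log2 fold changes from −4.02 (Lum) to −0.64 (Pdgfra). Col1a1, Pi16, Cd34 and Scara5 did not pass. The 9 markers summed to 7204 to 9536 CPM in WWv and 5879 to 12135 CPM in WT, with WT 2 the lowest. Col1a1 made up most of this sum, with means of 8415 CPM in WWv and 8908 CPM in WT. The 9 endothelial markers summed to 95.8 to 222 CPM in WWv and 94.5 to 343 CPM in WT, with WT 2 the highest, and 1 of them, Erg, was called lower. In bulk RNA, fewer cells of a type and less RNA per cell cannot be told apart, and the part of these cells in the level of Vim was not tested.

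**Figure D3:**
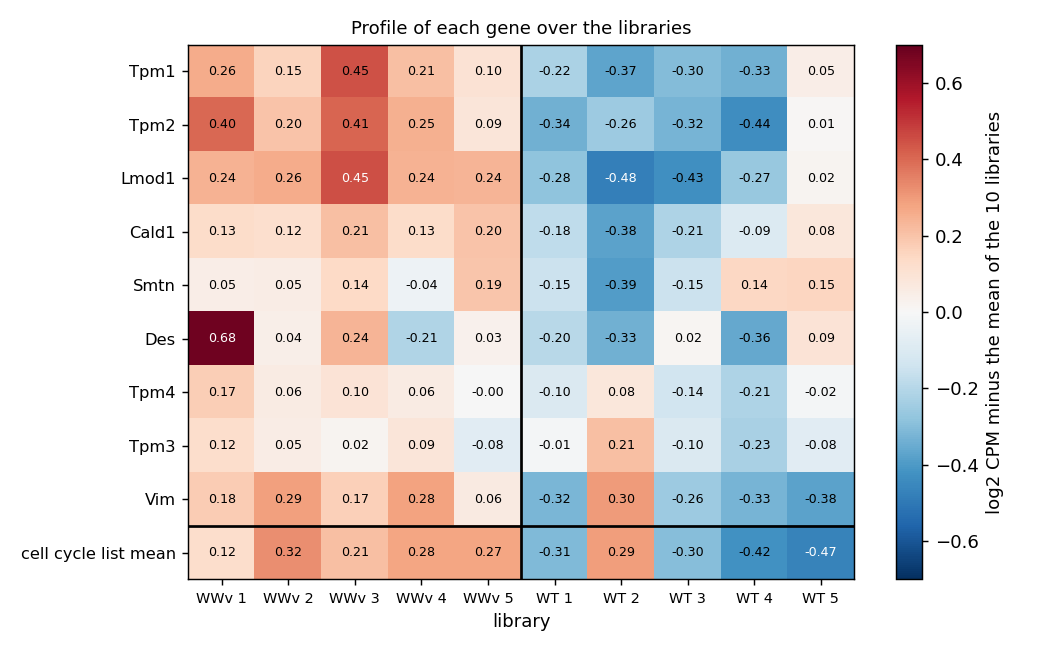
The heat map gives log2 CPM minus the mean over the 10 libraries for each gene, with WWv libraries left of the line and WT libraries right of it, and the mean of 16 cell cycle genes in the bottom row. In WT 2 Vim (0.30), Tpm3 (0.21) and the cell cycle mean (0.29) are above their average, and Lmod1 (−0.48), Smtn (−0.39), Cald1 (−0.38) and Tpm1 (−0.37) are below it.

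**Figure D4:**
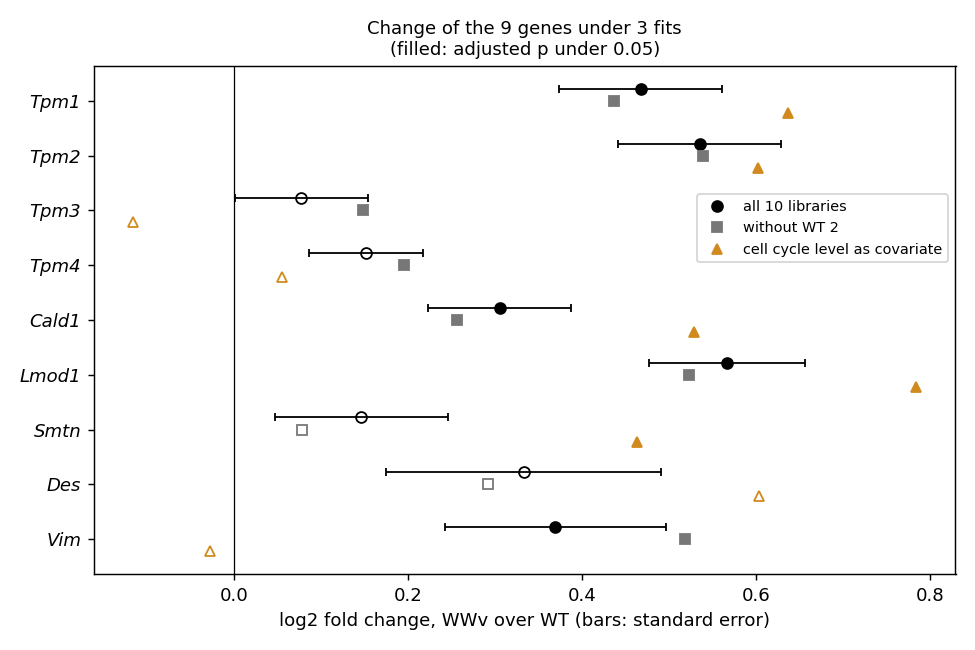
Points give the log2 fold change of WWv over WT for each gene with all 10 libraries (circles, with standard errors), without WT 2 (squares) and with the cell cycle level as a covariate (triangles), and filled points passed an adjusted p of 0.05. Tpm1, Tpm2, Cald1 and Lmod1 are filled in all 3 fits, and Vim ranges from −0.028 to 0.52.

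The WT 2 library thus lay on different sides for different genes of the set. It was the lowest WT library for Tpm1, Cald1, Lmod1 and Smtn, and the highest for Tpm3, Tpm4 and Vim. Leaving it out raised the calls among the 9 genes to 7, with 46.2% of all tested genes called and 22.7% called higher. WT 5 was the other library to set the margin between the groups, as the highest WT library for Tpm1, Tpm2, Cald1, Lmod1, Smtn and Des. For Tpm1, Tpm2, Cald1 and Lmod1, 4 of the 9 genes, the groups did not overlap with WWv higher, which held for 8.03% of all tested genes.

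Genes with the most similar profile were sought among the 8820 genes with a mean of at least 10 CPM, by the root mean square difference of log2 CPM over the 10 libraries after centring each gene on its own mean. Tpm1 was nearest to Csrp1, which encodes a smooth muscle LIM protein (0.061 log2 units), then to the myosin light chain gene Myl9 (0.078) and to Tpm2 (0.079). Lmod1 was nearest to Myl9 (0.064), Csrp1 (0.080) and Tpm1 (0.083), and Tpm2 to Tpm1 (0.079), Gm48529 (0.080) and Tbc1d1 (0.083). Gm48529 shares exon bases with the far more abundant Tagln on the other strand, and its own level is uncertain. Each of these 3 genes had another of the 9 among its 3 nearest. Tpm4 was nearest to Klc2, Myh9, the non-muscle myosin heavy chain gene, and Ube2n (0.033 to 0.036). Vim was nearest to Cse1l, Pold1, which encodes the catalytic subunit of a replicative DNA polymerase, and Phf6 (0.048 to 0.057). Cald1 was nearest to St3gal3, Smco4 and Esyt2 (0.051 to 0.058), Smtn to Smarcd3, Dcaf5 and Fbxl4 (0.047 to 0.062), and Tpm3 to Pdcd5, Mrpl15 and Nup93 (0.032 to 0.033). The genes nearest to Des, which were Jade1, Fzd7 and Ncam1, lay at 0.15 to 0.17. By closeness to Tpm1, Lmod1 ranked 5 of the 8820 genes, Cald1 47, Smtn 1433 and Vim 3780. These distances are not scaled to the spread of a profile over the libraries. That spread ran from 0.11 log2 units for Tpm4 and 0.12 for Tpm3 to 0.32 for Lmod1. A profile with little spread gets small distances, so they cannot be compared between the 9 genes.

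SRF, with its coactivator myocardin, drives many smooth muscle genes through the CArG box, and the windows 250 bases upstream of the RefSeq start sites (GRCm38.p6, the assembly that mm10 names) were read for it on both strands. All 9 genes matched, with 11 windows. A complete CArG box was found in 0 of the 11 windows, against 1.47% of 32817 promoter windows of the same length. A CArG box with 1 mismatch was found in 5 of 11 windows, against 17.5% of all windows. Of these 5 windows 2 belong to Tpm3, which was not called, and 1 each to Tpm1, Cald1 and Lmod1. For the 4 genes whose groups did not overlap in TMM-scaled CPM, the longest stretch of 1 window outside annotated exons is printed, with each near-match in capitals. The other Cald1 window held no near-match and is not printed.
Lmod1, chr1:135324563-135324806, plus strand: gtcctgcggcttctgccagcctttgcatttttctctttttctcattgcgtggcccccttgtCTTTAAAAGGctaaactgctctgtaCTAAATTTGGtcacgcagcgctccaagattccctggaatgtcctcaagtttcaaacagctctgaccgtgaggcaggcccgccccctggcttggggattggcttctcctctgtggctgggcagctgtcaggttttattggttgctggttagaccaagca
Tpm1, chr9:67049407-67049463, minus strand: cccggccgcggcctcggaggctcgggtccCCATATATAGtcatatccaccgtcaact
Tpm2, chr4:43523596-43523700, minus strand: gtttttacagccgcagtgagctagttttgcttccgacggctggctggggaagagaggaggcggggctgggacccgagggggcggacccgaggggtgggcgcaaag
Cald1, chr6:34598254-34598499, plus strand: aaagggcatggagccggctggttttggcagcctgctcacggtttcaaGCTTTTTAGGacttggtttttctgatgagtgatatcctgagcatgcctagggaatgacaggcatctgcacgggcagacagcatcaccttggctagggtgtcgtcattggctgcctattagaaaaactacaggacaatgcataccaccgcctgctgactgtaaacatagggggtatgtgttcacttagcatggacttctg
The Lmod1 near-matches begin 189 and 164 bases upstream of the start site. That of Tpm1 begins 221 bases upstream, and a further one, CCAAAAAAGT, begins 80 bases upstream within an annotated exon. That of Cald1 begins 203 bases upstream of 1 of its 2 start sites, and the Tpm2 window held no near-match. Such a match describes the letters in the window and shows no binding.

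The partners of the 9 genes were described from lists of the thin filament and its neighbours. Of all tested genes 12.8% were called higher and 15.4% lower in the main fit. The share called higher was 22.7% without WT 2 and 4.7% with the cell cycle covariate. With library size only, 983 rather than 1940 genes were called higher. Of 11 tested actins, calponins and transgelins 7 were called higher and 0 lower, with a median log2 fold change of 0.47 (9 higher without WT 2 and 4 with the cell cycle covariate). Acta1, the skeletal muscle actin gene, rose by 1.38 ± 0.22 on the log2 scale (66.0 ± 17.6 CPM in WWv and 25.4 ± 6.72 CPM in WT, adjusted p = 0.00185), but did not pass under the cell cycle covariate (1.07, adjusted p = 0.0671). Acta2, the smooth muscle actin gene, averaged 11395 ± 879 CPM in WWv and 6777 ± 815 CPM in WT (0.75, adjusted p = 0.000676), a larger log2 fold change than that of any of the 9 genes. Tagln, whose exons overlap genes on the opposite strand (0.73, adjusted p = 0.000461), and Actg2 (0.76, adjusted p = 0.036) were higher too, and the call of Actg2 was lost in 7 of 10 fits that left out a library. Actb, Cnn3, Tagln2 and Tagln3 did not pass.

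A list of 19 genes held myosin II, its phosphatase and the regulators Mylk, Rock1, Rock2 and Rhoa. Of the 19, 9 were called higher and 1, Myl6b, lower, with a median of 0.22 (10 higher without WT 2). Rock1, Rock2 and Rhoa were among the higher ones, and Mylk did not pass. Myh11, the smooth muscle myosin heavy chain gene, averaged 579 ± 82.7 CPM in WWv and 283 ± 73.2 CPM in WT (1.03, adjusted p = 0.00178). Ppp1r14a, which encodes the myosin phosphatase inhibitor CPI-17, rose by 0.95 on the log2 scale (adjusted p = 0.00134), the kinase gene Rock1 by 0.55 (adjusted p = 0.000372) and Myl9 by 0.55 (adjusted p = 0.00274). Among SRF and its partners 1 of 8 rose and 0 fell, near the 12.8% of all tested genes called higher. The gene that rose was Myocd (3.78 ± 0.798 CPM in WWv and 1.72 ± 0.350 CPM in WT, 1.13, adjusted p = 0.00201). Srf, Mrtfa, Mrtfb, Elk1, Elk3, Elk4 and Fhl2 did not pass. Without WT 2 there were 3 higher, where 22.7% of all tested genes were called higher, and 2 with DESeq2.

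The relatives of leiomodin that cap the pointed end of the filament showed no rise. Of 4 tested genes 0 were higher and 1, Tmod4, was lower at a very low level (0.409 CPM in WWv and 0.826 CPM in WT, adjusted p = 0.013), while Tmod1, Tmod2 and Tmod3 did not pass. The call of Tmod4 was lost with the cell cycle covariate (−0.77, adjusted p = 0.267) and with replicate number as a block (adjusted p = 0.0501). Lmod2, Lmod3, Smtnl1 and Smtnl2 were not tested because of low counts. Of 20 actin turnover factors 11 were higher and 2 lower, among them Gsn (0.52, adjusted p = 0.000676), Dstn (0.46, adjusted p = 0.00299), Actr2 (0.38, adjusted p = 0.00217) and Cfl2 (0.32, adjusted p = 0.00312), whose products sever, depolymerise or branch actin filaments. Without WT 2 there were 16 higher, with library size only 5, and with the cell cycle covariate 2, where Dstn, Actr2 and Cfl2 lost their calls. The share of all tested genes called higher moved in the same direction, from 12.8% to 22.7% without WT 2 and to 4.7% with the covariate. Of 12 cross-linkers and anchors 6 were higher and 2, Actn2 and Actn3, lower at low levels, with Synpo2 at 1.10 (adjusted p = 0.001). Without WT 2 there were 8 higher and 3 lower, and with the cell cycle covariate 3 higher and 0 lower. The call of Actn2 was lost in 9 of 19 alternatives.

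Beside Des and Vim, 6 of 13 other intermediate filament genes and linkers were higher and 0 lower, with a median of 0.29. Sync, which encodes syncoilin, a desmin partner, averaged 33.4 ± 1.84 CPM in WWv and 22.6 ± 2.20 CPM in WT (0.57, adjusted p = 0.000676). Synm, the gene of synemin, which assembles with desmin and vimentin, was at 5.29 ± 0.413 CPM in WWv and 4.21 ± 0.354 CPM in WT (0.33, adjusted p = 0.023). Both overlap genes on the opposite strand, so their reads are uncertain. The linker gene Macf1 rose by 0.32 on the log2 scale (adjusted p = 0.00408, and 0.0924 under the covariate), and Lmna, of the nuclear lamina, by 0.37 (adjusted p = 0.0355), with WT 2 the highest of all WT libraries as for Vim. The call of Lmna was lost in 9 of 10 fits that left out a library, and that of Synm in 7 of 20 alternatives. The 6 calls numbered 9 without WT 2, and they fell to 1 with the cell cycle covariate, to 2 with library size only or without WWv 2, and to 3 without WT 3, WWv 3, WWv 4 or WWv 5.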

How the data were processed

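Per the labels' protocols, the RNA came from an Omega EZNA kit and the libraries from Nugen Universal Plus mRNA-Seq. The deposited values are raw counts per gene, in whole numbers, 1 column per library, not normalized. Per the submitters' processing notes, bcl2fastq 2.17, Trim Galore 0.4.3, STAR 2.5.2a and the build mm10 were used. Which tool, strandedness and gene annotation the authors counted with is not given in the sources used here. Overlapping genes are therefore treated as uncertain. Without version 54409 IDs matched GENCODE M21, and the other 37 held 0.0026% of counts.

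WWv was compared with WT in edgeR 4.0.16 (R 4.3.3), quasi-likelihood test, group as the only term, TMM scaling, filterByExpr at a minimum count of 10, over 15181 genes. Every adjusted p is Benjamini-Hochberg over these genes, two-sided. A standard error is the absolute log2 fold change over the root of the F statistic. CPM is scaled with TMM. The procedure was tested on simulated data. Exon overlaps came from bedtools 2.31.1 and near-identical copies from BLAST 2.17.0. DESeq2 1.42.0 and limma 3.58.1 served as alternatives.

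The genes and lists were chosen with earlier results of these data known. The naming rule took the 9 genes, Kit, up to 4 called genes of each list with the largest change (or the smallest p), and the 3 nearest profiles of each gene. Named after their values were seen were Tpm3-rs7, the overlapping genes, Myl6b, Rock2, Rhoa, Myh2, Erg, the fibroblast markers and the genes listed as not past the threshold. A gene that the rule named is not reported here.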

Additional observations from a re-analysis of the deposited data

Results flagged for a closer look

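Each of the 9 genes was examined in both groups of 5 libraries for a library far from the rest, by Dixon's ratio of its gap to the group's range, with a critical value of 0.71. Chance flags about 1 in 20 groups, and 18 were examined. Lmod1 in WWv 3 stood at 341 CPM, against 294 to 298 CPM in the other 4 WWv libraries. Vim in WT 2 stood at 5049 CPM, against 3160.3 to 3435 CPM in the other 4 WT libraries, and that library also stood apart on the principal components and in the cell cycle genes.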

How the results depend on the processing

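Tpm1, Tpm2 and Lmod1 kept their direction and their call in all 20 alternatives, and Des stayed uncalled in all 20. Genes called numbered 1205 with the cell cycle covariate (714 higher, 491 lower), which was chosen after seeing the data, and 983 were higher and 3599 lower with library size only. Leaving out a library gave 3013 to 7127 calls (1286 to 3507 higher, 1721 to 3620 lower) and 3 to 7 of the 9 genes higher, the most in each case without WT 2. In those fits Tpm3 ran from 0.033 to 0.15, Tpm4 from 0.12 to 0.20, Cald1 from 0.26 to 0.37 and Vim from 0.32 to 0.52. Tpm3 turned to −0.0089 with library size only and −0.12 with the covariate, where Vim turned to −0.028, Lmna to −0.010 and Smtn passed at 0.46. Vim lost its call with RLE (0.37), upper quartile (0.35), library size only (0.28), no low-count filter (0.37) and 1 CPM in 5 libraries (0.35). The cause was not tested. Equal replicate numbers did not pair the libraries (correlations of −0.09 to 0.31 between same-numbered WWv and WT deviations, under 0.1 in 4 of 5 pairs). With the replicate block 3636 genes were called, Vim stood at 0.39, Tpm1 at 0.47, Tpm2 at 0.54, Cald1 at 0.31 and Lmod1 at 0.58, and no call among the 9 genes changed. With 497 to 965 counts per library, Des had the largest standard error of the 9 genes.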

Other observations

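Troponins, the partners of tropomyosin in striated muscle, were present at low levels. Of 5 tested troponin genes 1 was higher and 2 were lower in WWv, where 12.8% of all tested genes were called higher and 15.4% lower. Tnnt2, the cardiac troponin T gene, averaged 5.11 ± 0.985 CPM in WWv and 1.89 ± 0.456 CPM in WT (SD, n = 5 each, log2 fold change 1.44, edgeR adjusted p = 0.000712), with no overlap between the groups. Tnni3, the cardiac troponin I gene, averaged 0.368 ± 0.142 CPM in WWv and 1.22 ± 0.342 CPM in WT (−1.72, adjusted p = 0.00274), and its reads are uncertain because it shares exon bases with Dnaaf3 on the same strand. Tnnt3, the fast skeletal troponin T gene, averaged 0.518 ± 0.123 CPM in WWv and 1.13 ± 0.378 CPM in WT (−1.12, adjusted p = 0.00966). The calls of Tnni3 and Tnnt3 were lost with the cell cycle covariate (−1.03 and −0.57, adjusted p = 0.123 and 0.372).

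The ratio of Vim to Des, per kb, ran from 169 to 337 in WWv and from 173 to 373 in WT, with overlap. The 9 genes together took 1.37 to 1.48% of all counts in WWv and 1.13 to 1.34% in WT.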
